A study of Homo sapiens with 12 samples.

Results

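The 10 genes described here encode the 5 subunits of the transcription factor NF-kB (NFKB1, NFKB2, REL, RELA and RELB) and 5 proteins that act back on the pathway (NFKBIA, NFKBIE, NFKBIZ, TNFAIP3 and BIRC3). They were taken by symbol from a table of 54261 genes. All 10 passed the filter on low counts that left 17572 genes for testing. RNA came from cells labelled SW480 and DLD1, the names of 2 long-established lines of human colorectal cancer. Each was sequenced as 3 control libraries without lactate and 3 libraries of lactate-treated cells. The labels call them biological replicates, and no dose or duration of lactate was found there. Each line stands for 1 tumour, so differences between the lines are differences between these 2 cultures.

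NF-kB is a family of dimers built from these subunits. RELA, REL and RELB carry the domain that activates transcription, while NFKB1 and NFKB2 encode the precursors p105 and p100, which are processed to the DNA-binding proteins p50 and p52. In resting cells, inhibitors of the IkB family hold the dimers in the cytoplasm. Signals from receptors for tumour necrosis factor, interleukin-1 or microbial products activate the IKK kinases, which mark the inhibitors for destruction. The freed dimers bind kappaB sites in DNA and induce cytokine genes as well as genes of their own inhibitors, which closes a feedback loop. In colorectal epithelium the pathway is known for linking inflammation with cell survival.

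Short DNA stretches that match the kappaB consensus, the pattern of NF-kB binding sites, lie before the starts of most of these genes. They are shown here for reference. Of the genes called with lactate in SW480 below, 5 of 6 carry a match and RELA does not, and NFKB2 and REL carry one and were not called. Whether a match goes with the lactate response was not tested. RefSeq (GRCh38.p14) gave 13 transcription starts for 8 of the 10 genes. RELB and NFKBIE had no entry. The 250 bases before each start were searched on both strands for the kappaB consensus. In the lines below, read 5′ to 3′ along the gene's own strand, capitals mark the match to the consensus. A match is a description of the sequence and not evidence of binding.
TNFAIP3, chr6:137867188-137867217, + strand: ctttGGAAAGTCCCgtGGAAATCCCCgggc
NFKBIA, chr14:35404811-35404840, - strand: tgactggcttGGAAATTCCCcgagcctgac
NFKBIZ, chr3:101827757-101827786, + strand: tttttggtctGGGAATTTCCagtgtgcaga
BIRC3, first match, chr11:102317275-102317304, + strand: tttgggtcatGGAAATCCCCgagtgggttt
BIRC3, second match, chr11:102317339-102317368, + strand: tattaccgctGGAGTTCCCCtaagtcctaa
NFKB1, chr4:102501300-102501329, + strand: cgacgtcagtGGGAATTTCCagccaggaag
NFKB2, chr10:102394462-102394491, + strand: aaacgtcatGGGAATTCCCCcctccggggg
REL, chr2:60881518-60881547, + strand: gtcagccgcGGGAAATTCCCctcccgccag

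The consensus was found before 9 of the 13 starts, against 9.96% of 35116 starts in the RefSeq table. The genes were chosen as parts of this pathway, so that contrast is not an independent result. Both starts of RELA, the second start of NFKB1 and the first start of NFKB2 had no match in this window. Along the gene's strand NFKB1 and NFKBIZ share the same 10 letters (GGGAATTTCC), and the second TNFAIP3 match and the first BIRC3 match share GGAAATCCCC. NFKBIA and REL carry GGGAATTTCC on the opposite strand. The first TNFAIP3 match, read on the opposite strand, is GGGACTTTCC, which NFKB2 has on its own strand before a later start. The TNFAIP3 pair lies 67 to 46 bases before an inner start at 137867259, and the REL match 47 to 37 bases before the start.

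**Figure D1:**
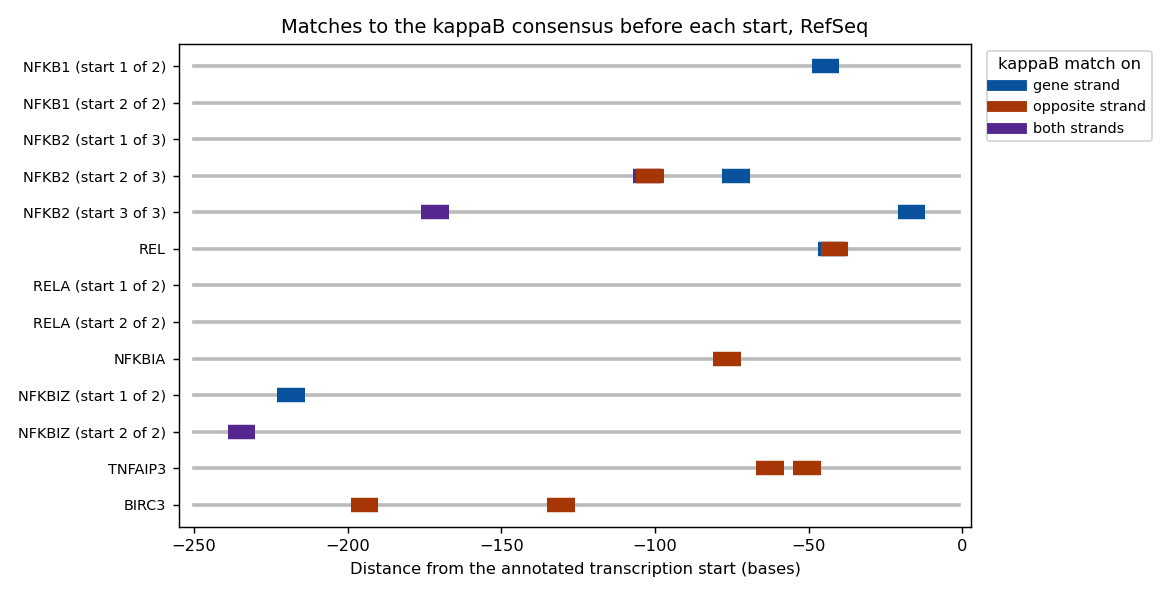
Position of each match to the kappaB consensus (coloured blocks) in the 250 bases before 13 RefSeq starts of 8 of the genes; the x axis is the distance from the start in bases, and colours give the strand of the match. Blocks are present on 9 of the 13 lines and on neither RELA line.

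Library totals ran from 12302311 to 22662063 counts, and the 10 genes had 210 to 20340 counts per library. Levels are given as CPM, a gene's count relative to the library's total, and per kilobase of transcript where genes are compared with each other. Libraries DLD1 control 2 and DLD1 control 3 stood apart from their group. Set against their 2 fellow controls, they deviated with an SD across genes of 0.545 and 0.445 on the log2 scale, and the other 10 libraries with at most 0.266. Across 12028 genes this deviation followed transcript GC content at Spearman's rho -0.79 in DLD1 control 2 and 0.82 in DLD1 control 3. Among 7 epithelial markers, EPCAM stood at 701 ± 13.8 CPM (SD, n = 3) in DLD1 controls and at 0.964 ± 0.184 in SW480 controls, and CDX2 at 138 ± 42.5 and 0.124 ± 0.149. In the same order, CDH1 stood at 695 ± 51.9 and 1.45 ± 0.131, and VIL1 at 8.68 ± 0.677 and 0.0464 ± 0.0418. The identity of the lines was taken from the labels, and whether these marker levels bear it out was not tested. The keratin gene KRT8 was at 1316 ± 110.4 CPM in SW480 controls. After lactate in SW480 KRT8 (-0.51) and KRT18 (-0.61) fell and KRT19 (0.71) rose on the log2 scale, while 0 of 7 epithelial markers were called in DLD1 by edgeR. Immune markers summed to at most 8.89 CPM in any library (3 of 9 passed the filter) and endothelial markers to at most 4.50 (1 of 5). Fibroblast markers summed to 246 to 264 CPM in SW480 and 9.85 to 13.05 in DLD1, with COL1A1 called higher after lactate in SW480 (1.23). The highest of them in SW480 were COL3A1 and DCN, whose means were lower with lactate without a call. COL3A1 went from 142.5 ± 10.3 to 126.5 ± 3.81 CPM and DCN from 81.2 ± 5.73 to 65.4 ± 8.82. The part of these marker changes in the results below was not tested.

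Among the 10 genes, the differences between the untreated lines were largest for the feedback genes TNFAIP3, NFKBIE and BIRC3. TNFAIP3 (chromosome 6, 137866349 to 137883312) encodes A20, an enzyme that edits ubiquitin chains and shuts off signalling to IKK. The SW480 controls had 565, 699 and 645 CPM of it, and the DLD1 controls 60.3, 59.9 and 64.1. Every SW480 control was far above every DLD1 control, and the DLD1 level was 0.0923 of that in SW480. BIRC3 (chromosome 11, 102317484 to 102339403) encodes cIAP2, a ubiquitin ligase at the tumour necrosis factor receptor that also restrains the alternative NF-kB pathway. It was at 253, 316 and 295 CPM in SW480 controls and 75.3, 115 and 64.3 in DLD1 controls. NFKBIE (chromosome 6, 44258166 to 44265551), which encodes the inhibitor IkB-epsilon, went the other way, with 14.0, 17.1 and 13.9 CPM in SW480 and 71.8, 53.3 and 80.7 in DLD1. The 3 DLD1 libraries were all above the 3 SW480 libraries for NFKBIE, and all below them for BIRC3. In bulk RNA, fewer cells with a transcript and less of it per cell cannot be told apart.

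In edgeR's quasi-likelihood test with Benjamini-Hochberg adjustment, 3 of the 10 genes were higher and 4 lower in untreated DLD1 than in untreated SW480. Of all 17572 genes 70.8% were called in this comparison (33.6% higher, 37.3% lower), so the members' count lies at the background. The control libraries did not overlap for 7 of the 10, against 70.6% of all genes (35.1% higher, 35.5% lower). The log2 differences (DLD1 minus SW480) were -3.44 ± 0.11 (SE) for TNFAIP3 (adjusted p 6.48e-13), -1.83 ± 0.18 for BIRC3 (3.20e-07) and 2.13 ± 0.15 for NFKBIE (4.70e-09). NFKBIZ (0.76) and RELB (0.67) were higher in DLD1, and NFKB2 (-0.78) was lower, with no overlap of the control libraries in any of these 3. NFKBIA (-0.29, adjusted p 0.0344) was called lower although the libraries overlapped. NFKB1 (0.16, 95% interval -0.03 to 0.34), REL (0.40 ± 0.28, SE) and RELA (-0.16, -0.52 to 0.19) were not called. The call of NFKBIA was lost with 6 of the 12 libraries left out one at a time, namely SW480 control 2 (adjusted p 0.178), SW480 control 3 (0.0538), SW480 lactate 1 (0.0619), SW480 lactate 2 (0.0504), DLD1 control 1 (0.0838) and DLD1 control 2 (0.0678). It was also lost without the filter (-0.27, adjusted p 0.0654), with the trend along GC content and length removed (-0.17, 0.0513), with replicate number as a block (-0.21, 0.244) and with both (-0.07, 0.553). REL (0.68, adjusted p 0.0170) and RELA (-0.38, 0.0292) were called without DLD1 control 3, while without DLD1 control 2 they stood at -0.19 and 0.01. Once each library's trend along GC content and length was taken out, both were called, REL at 0.81 (adjusted p 0.00245) and RELA at -0.38 (3.27e-04), and with replicate number as a block too they stood at 0.85 (0.0104) and -0.31 (0.0103).

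Compared per kilobase of transcript, the most abundant members in SW480 controls were NFKBIA, at 163 ± 19.4 CPM per kb (SD, n = 3), and TNFAIP3, at 134 ± 14.3. In DLD1 controls NFKBIA was again the highest at 139 ± 18.5, but TNFAIP3 stood at 12.97 ± 0.482, at the level of RELB (13.6 ± 3.88). NFKBIE stood at 5.80 ± 0.704 in SW480 controls and 26.6 ± 5.41 in DLD1 controls, where its range of 20.7 to 31.3 overlapped that of NFKBIZ (22.7 to 31.04). REL was the lowest member in all 4 groups, at 3.59 to 4.95 CPM per kb. These levels rest on 1 transcript model per gene, the longest coding one.

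**Figure D2:**
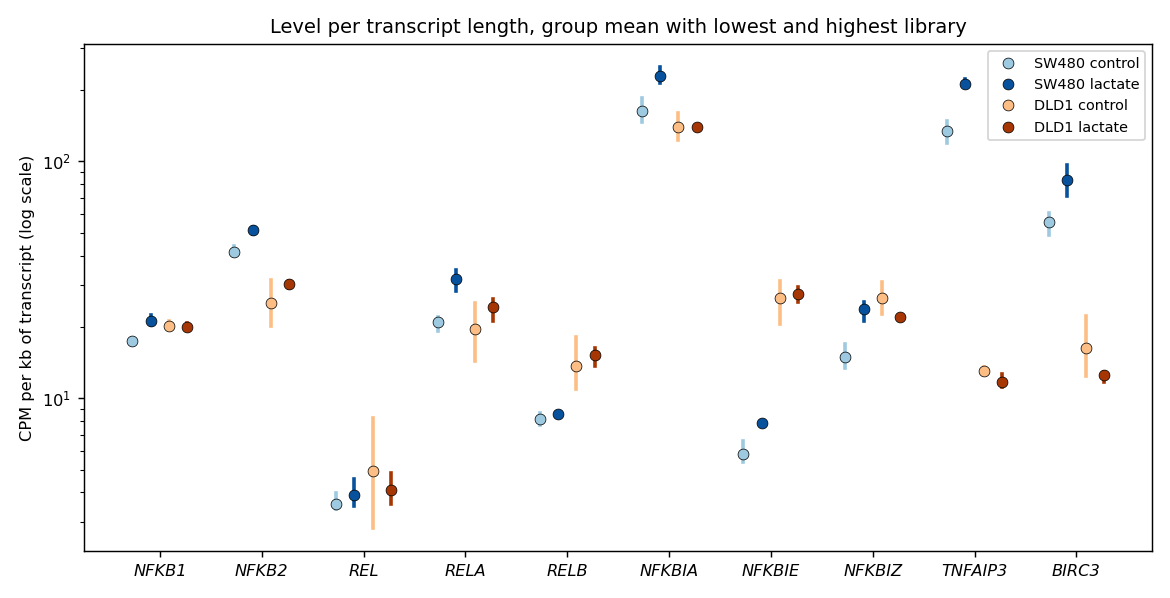
Mean level of each gene in each group in CPM per kb of transcript (log scale), with bars from the lowest to the highest of 3 libraries. NFKBIA is high in all 4 groups, TNFAIP3 lies at 134 and 212 in SW480 and at 12.97 and 11.7 in DLD1, and NFKBIE is higher in DLD1 than in SW480.

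Lactate raised 6 of the 10 genes in SW480 and lowered 0. Of the 17572 genes tested in SW480 12.4% were called (6.83% up, 5.59% down), and the median log2 fold change of the 10 genes was 0.49, against -0.01 for all genes. TNFAIP3, NFKBIZ, NFKBIA and BIRC3 among the feedback genes and RELA and NFKB1 among the subunits rose, by 1.24 to 1.62 times. At an unadjusted p under 0.05 the count was 8 up and 0 down, against 27.3% of all genes in either direction. DESeq2 called 8 members up and 0 down among 2853 genes in all, and limma-voom 6 and 0 among 2467. For 8 of the 10 genes every lactate library exceeded every control. Among all genes 40.8% had groups apart in either direction, 18.9% with lactate higher.

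TNFAIP3 went from 565, 699 and 645 CPM in the controls to 985, 1051 and 971 in the lactate libraries. The lowest lactate library was above the highest control by a wide margin, and the log2 fold change was 0.68 ± 0.10 (SE), with an edgeR adjusted p of 7.38e-04. NFKBIZ (chromosome 3, 101827990 to 101861022) encodes IkB-zeta, a nuclear member of the inhibitor family that acts as a co-regulator of NF-kB target genes. It went from 52.4, 66.6 and 56.6 CPM to 95.9, 99.7 and 83.2, a rise of 0.70 ± 0.13 with an edgeR adjusted p of 0.00434. These 2 calls held in all 23 alternative settings, with log2 fold changes of 0.60 to 0.75 for TNFAIP3 and 0.62 to 0.80 for NFKBIZ. An antisense transcript, LOC100130476 (listed by RefSeq as WAKMAR2), overlaps exons of TNFAIP3 on the opposite strand. Whether the counting used strand is not given in the sources used here, so reads of the pair cannot be told apart. That transcript was looked up after its values were seen. It had 516 to 974 counts per library in SW480 and a log2 fold change of 0.31 (adjusted p 0.169).

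NFKBIA (chromosome 14, 35401513 to 35404749) encodes IkB-alpha, the main inhibitor and the classic early target of the pathway. Its level went from 229, 288 and 246 CPM to 349.6, 389 and 333 CPM, and all 3 lactate libraries exceeded the controls. The log2 fold change was 0.52 ± 0.11, with an edgeR adjusted p of 0.00973. BIRC3 went from 253, 316 and 295 CPM to 372, 431 and 499, again without overlap, by 0.61 ± 0.17 (adjusted p 0.0342). On the log2 scale its lactate libraries were spread about as widely as those of RELA. BIRC3 has a transcript GC content of 34.8%, and the libraries SW480 lactate 1 (lowest for BIRC3) and SW480 lactate 3 (highest) followed GC content at rho 0.49 and -0.61 across genes. NFKBIE went from 14.0, 17.1 and 13.9 CPM to 20.0, 20.4 and 20.2, and its 3 lactate libraries were all above the controls. Its log2 fold change of 0.46 ± 0.15 (95% interval 0.15 to 0.78) missed the threshold, with an adjusted p of 0.0549. It was called in 11 of 23 alternative settings, among them DESeq2 (adjusted p 0.0165) and edgeR with SW480 fitted alone (0.00387).

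Among the subunits, RELA (chromosome 11, 65653601 to 65663857), which encodes the activating subunit p65, had the largest rise in SW480. It was at 61.4, 70.1 and 69.1 CPM in the controls and at 103, 111 and 89.8 with lactate. The log2 fold change was 0.63 ± 0.17, with an edgeR adjusted p of 0.0249. A noncoding gene overlaps exons of RELA on the opposite strand, so part of its reads may belong to that gene. NFKB1 (chromosome 4, 102501359 to 102617302) went from 68.5, 71.0 and 73.1 CPM to 85.1, 83.1 and 91.3, a small but non-overlapping rise of 0.31 ± 0.09 (adjusted p 0.0307). NFKB2 (chromosome 10, 102394110 to 102402529) was at 138, 150.3 and 136 CPM in the controls and 181, 177 and 168 with lactate. The NFKB2 libraries did not overlap either, but its 0.34 ± 0.13 (0.06 to 0.61) had an adjusted p of 0.104. NFKB2 was called in 7 of 23 alternative settings, among them edgeR with SW480 fitted alone (adjusted p 0.00146) and DESeq2 (0.0452). RELB (chromosome 19, 45001464 to 45038192), the partner of p52 in the alternative pathway, was at 17.6 to 19.8 CPM in the controls and 19.1 to 20.0 with lactate, a log2 fold change of 0.09 (-0.26 to 0.43). REL (chromosome 2, 60881574 to 60931612), which encodes c-Rel, was at 38.2 to 44.7 and 39.4 to 51.1 CPM, at 0.14 (-0.47 to 0.74). A noncoding gene overlaps exons of REL on the same strand, so part of the REL reads may belong to that gene. For RELB and REL the groups overlapped, and the interval of REL allows a change as large as that of RELA.

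**Figure D3:**
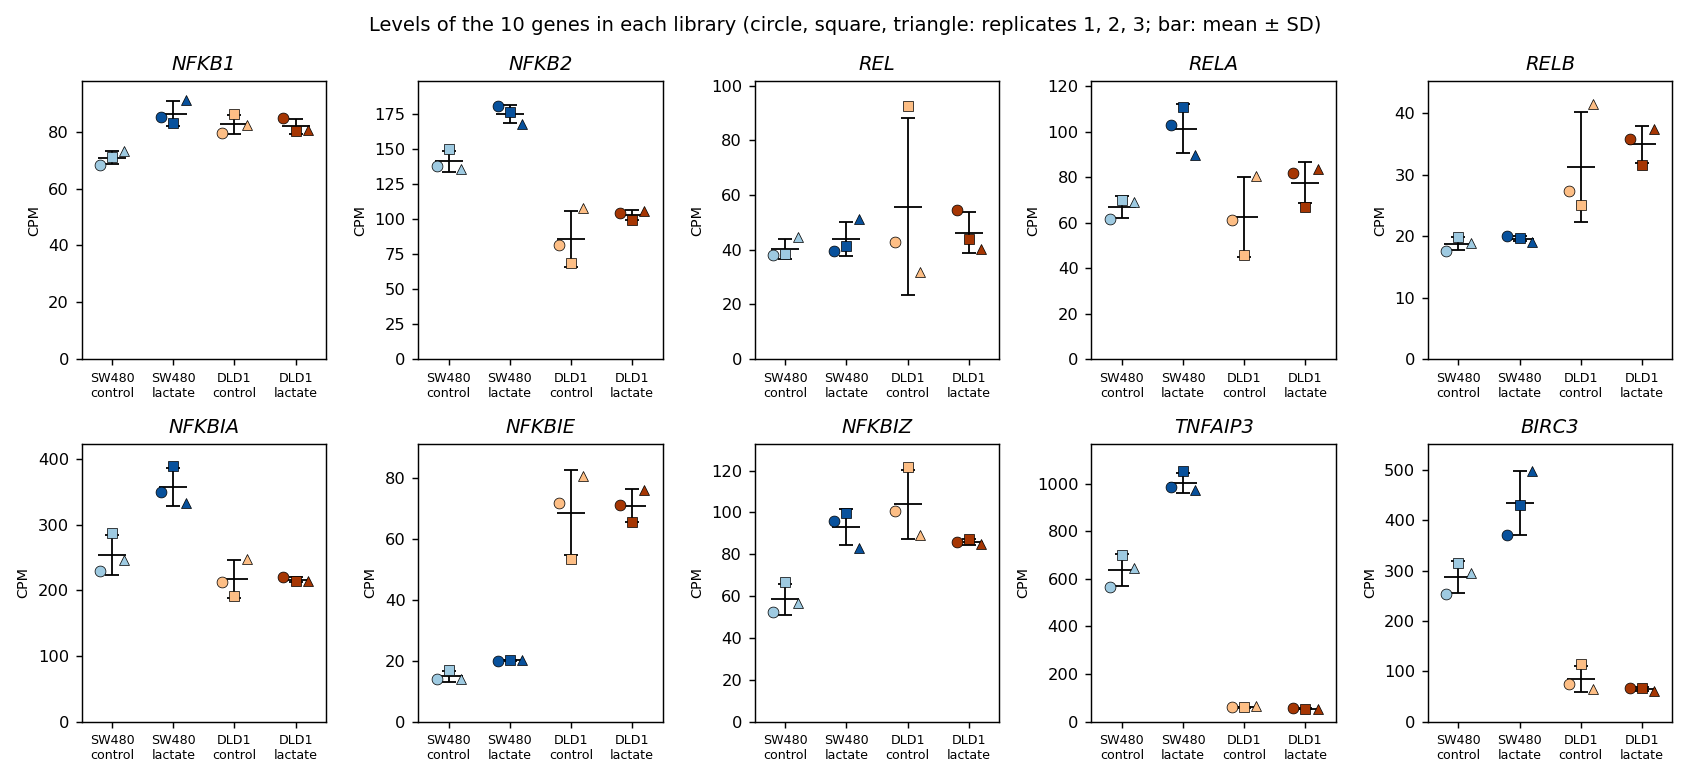
Level of each of the 10 genes in CPM in the 12 libraries (circle, square and triangle for replicates 1, 2 and 3), with the mean and SD of each group of 3; each y axis starts at 0. In SW480 the lactate libraries lie above the controls for 8 genes, while in DLD1 the control libraries are widely spread for REL, RELA, NFKB2 and BIRC3.

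In fits with a library left out, 4 of the 6 calls in SW480 were lost at least once. NFKBIA missed the threshold when SW480 control 1 (adjusted p 0.0732) or lactate 2 (0.0563) was left out. RELA lost its call when SW480 control 1 (0.131), control 2 (0.0547), control 3 (0.0662), lactate 1 (0.0534) or lactate 2 (0.107) was left out. So did BIRC3 when SW480 control 1 (0.173), control 2 (0.0544), control 3 (0.0838), lactate 2 (0.0968), lactate 3 (0.114) or DLD1 lactate 1 (0.0515) was left out. NFKB1 was lost without any 1 of the SW480 libraries (adjusted p 0.0592 to 0.145) or DLD1 lactate 3 (0.0502), and without the filter on low counts (0.150). All 10 log2 fold changes stayed above 0 in every one of these fits. The number of members called was 2 to 8 with single libraries left out, and 2 without SW480 control 1 or lactate 2.

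In DLD1 0 of the 10 genes passed the same edgeR test, in which 0.381% of all genes were called (0.336% up, 0.0455% down). The members' log2 fold changes ran from -0.41 to 0.29, with a median of -0.03 against 0.02 for all genes. At an unadjusted p under 0.05 the count was 0 up and 2 down, namely BIRC3 (p 0.0346) and NFKBIZ (p 0.0398). Of all genes 18.5% were under that p (9.48% lower), so 2 of 10 is near the background. DESeq2 and limma-voom called 0 members, among 684 and 80 genes in all. The libraries did not overlap for 2 genes, NFKBIZ and TNFAIP3, both lower with lactate. Of all genes 18.8% had groups apart (10.7% higher, 8.06% lower).

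TNFAIP3 was at 60.3, 59.9 and 64.1 CPM in the DLD1 controls and 59.7, 52.7 and 53.7 with lactate. The groups touched without overlapping, and the log2 fold change was -0.18 ± 0.10 (95% interval -0.39 to 0.04, edgeR adjusted p 0.359). Its antisense partner LOC100130476 had only 23 to 44 counts per library in DLD1. NFKBIZ was at 101, 122 and 89.1 CPM in the controls and at 85.7, 87.5 and 84.8 with lactate, a log2 fold change of -0.30 (-0.58 to -0.02). BIRC3 was at 75.3, 115 and 64.3 CPM and then at 66.4, 67.2 and 60.9, at -0.41 (-0.79 to -0.03). For both genes DLD1 control 2 was the highest control. NFKBIA was at 212, 191 and 248 CPM in the controls and 221, 214 and 214 with lactate, with an interval of -0.27 to 0.22 around -0.03. That interval ends below the rise of 0.52 measured in SW480.

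NFKBIE was at 71.8, 53.3 and 80.7 CPM in DLD1 controls and 71.0, 65.5 and 76.2 with lactate, with full overlap and a log2 fold change of 0.02 (-0.26 to 0.31). Among the subunits, NFKB1 was at 79.6, 86.3 and 82.3 CPM and then at 84.8, 80.4 and 80.6, a log2 fold change of -0.04 (-0.22 to 0.14). RELA was at 61.1, 45.8 and 80.7 CPM in the controls and 81.7, 67.1 and 83.7 with lactate, at 0.29 (-0.07 to 0.64). The RELA controls spanned nearly the whole range of the lactate libraries and below it, so the interval still holds a rise of the size seen in SW480. NFKB2 was at 81.5, 68.6 and 108 CPM, then 104, 99.4 and 106, and RELB at 27.2, 25.1 and 41.5 CPM, then 35.8, 31.5 and 37.4. The log2 fold changes were 0.24 (-0.03 to 0.52) and 0.14 (-0.19 to 0.47), and in both genes DLD1 control 3 was above every lactate library. REL was at 42.7, 92.5 and 31.9 CPM, then 54.5, 44.0 and 40.1, with the widest interval of the 10 (-0.89 to 0.30).

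**Figure D4:**
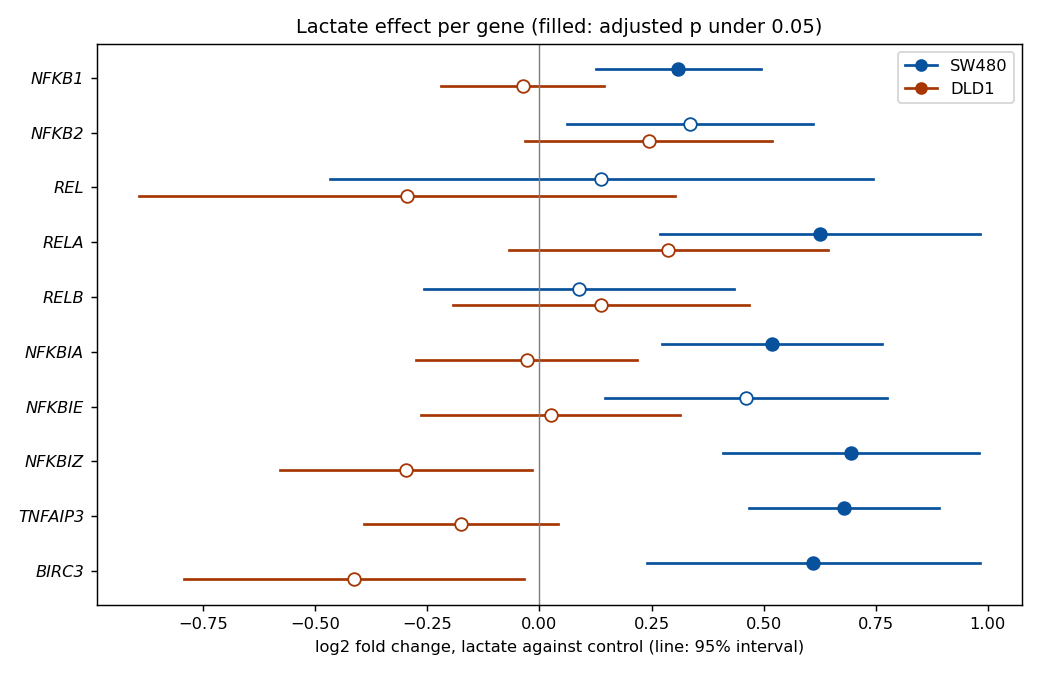
Log2 fold change with lactate for each gene in SW480 (blue) and DLD1 (red), with 95% intervals from edgeR; filled points have an adjusted p under 0.05. All 10 SW480 values are above 0 and 6 are filled, while the DLD1 values run from -0.41 to 0.29 and none is filled.

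In the DLD1 controls the members of low GC content deviated in one direction and those of high GC content in the other, though not in strict order of GC content. Relative to the other controls, DLD1 control 2 was higher by 1.34 on the log2 scale for REL (transcript GC content 38.7%), by 0.74 for BIRC3 (34.8%) and by 0.38 for NFKBIZ (46.2%). It stood at -0.60 for RELA (57.1%), -0.49 for NFKBIE (61.0%), -0.43 for NFKB2 (62.4%) and -0.40 for RELB (65.4%). DLD1 control 3 showed the mirror image, from -1.01 for REL to 0.63 for RELB. TNFAIP3 (49.5%) and NFKB1 (50.1%) lay in between, within 0.11 in both libraries, so their DLD1 values rest least on these libraries. Because each library is set against the other 2, part of the mirror image follows from the comparison itself. Across 12028 genes the lactate fold changes followed GC content at rho 0.69 in DLD1 and 0.03 in SW480.

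Without DLD1 control 3, 21.8% of all genes were called in DLD1, and so were 5 of the members. NFKB2 (0.43, adjusted p 0.0119), RELA (0.50, 0.0241) and RELB (0.38, 0.0309) rose, and NFKBIZ (-0.40, 0.0302) and BIRC3 (-0.59, 0.0171) fell. The 3 genes that rose in that fit are of high GC content and the 2 that fell of low GC content. Without both DLD1 control 2 and control 3, which leaves 1 control assumed to vary like the other groups, 0 members were called by edgeR. Once each library's trend along GC content and length was taken out, 0 members were called in DLD1 (3.49% of all genes were, 1.87% up and 1.62% down), and the values were -0.25 for NFKBIZ, -0.23 for TNFAIP3 and -0.08 for BIRC3. In SW480 the same removal gave 8 members up (28.6% of all genes were called, 13.8% up), with NFKB2 (0.25, adjusted p 0.00463) and NFKBIE (0.42, 0.00140) added.

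**Figure D5:**
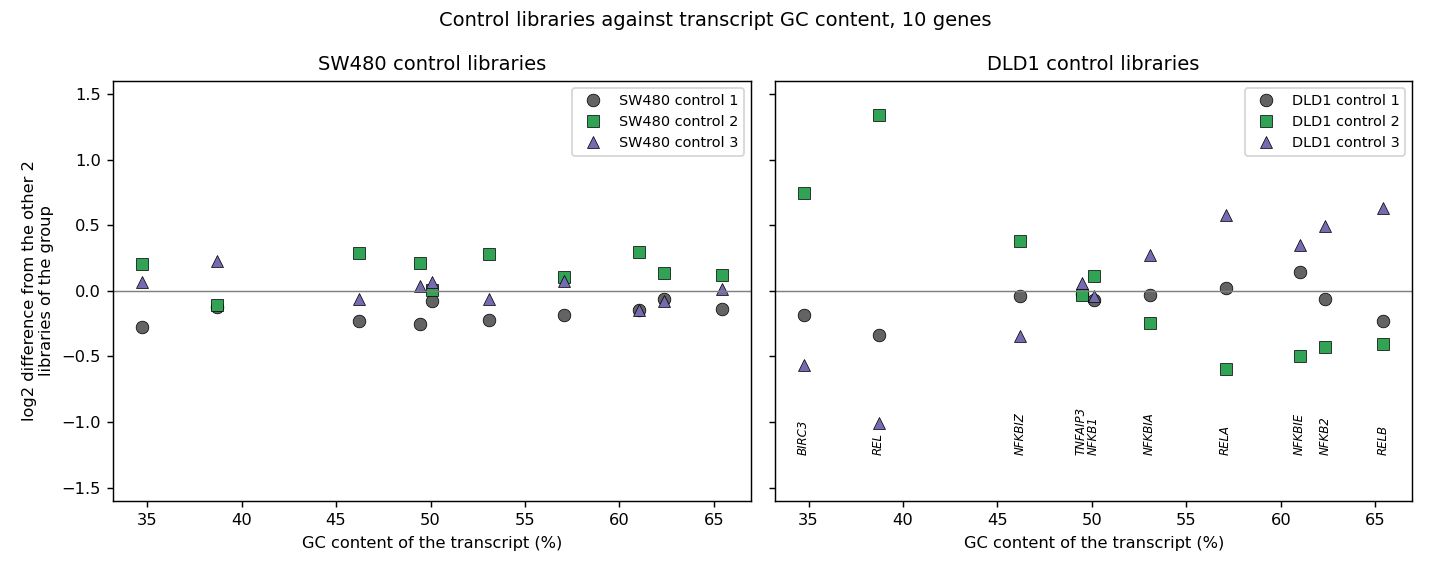
Log2 difference of each control library from the other 2 of its group for the 10 genes, against transcript GC content in percent, for SW480 (left) and DLD1 (right). In DLD1, control 2 runs from 1.34 for REL to -0.60 for RELA and control 3 from -1.01 for REL to 0.63 for RELB, while the SW480 controls stay within 0.30.

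The response to lactate differed between the lines for 2 of the 10 genes. For NFKBIZ the effect in DLD1 minus that in SW480 was -0.99 ± 0.19 (SE) on the log2 scale, with an edgeR adjusted p of 0.0253. For TNFAIP3 it was -0.86 ± 0.14, with an adjusted p of 0.0168. Both rose in SW480 and had values below 0 in DLD1, and 0.728% of all genes were called for this difference (0.324% higher and 0.404% lower in DLD1). The smaller effects in DLD1 of BIRC3 (-1.02 ± 0.25, adjusted p 0.0695), NFKBIA (-0.55 ± 0.16, 0.126) and NFKB1 (-0.35 ± 0.12, 0.179) did not pass. For NFKBIE (-0.44, 95% interval -0.86 to -0.01) and RELA (-0.34, -0.84 to 0.16) the adjusted p was 0.289 and 0.477. NFKB2 (-0.09, -0.48 to 0.30), REL (-0.43, -1.28 to 0.42) and RELB (0.05, -0.43 to 0.53) did not pass either, and these intervals leave room for effects in both directions.

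With a library left out, the NFKBIZ call was kept in 5 of 12 fits and the TNFAIP3 call in 7. For NFKBIZ the call ended when SW480 control 1 (adjusted p 0.105), control 3 (0.0897) or lactate 2 (0.0827) was left out, and without DLD1 control 1 (0.0650), lactate 1 (0.0871), lactate 2 (0.0684) or lactate 3 (0.0921), with log2 differences of -1.01 to -0.92 in these fits. For TNFAIP3 it ended when SW480 control 1 (0.0683), control 3 (0.0589) or lactate 2 (0.0574) was left out, and without DLD1 lactate 2 (0.0545) or lactate 3 (0.0633), with -0.87 to -0.77. After removal of the GC content and length trend 8 of the 10 genes had smaller effects in DLD1 (8.17% of all genes were called, 3.7% higher and 4.47% lower), with -0.94 for NFKBIZ, -0.87 for TNFAIP3, -0.68 for NFKBIA and -0.63 for BIRC3. DESeq2 called 5 of the 10 (719 genes in all), adding BIRC3 (-1.06, adjusted p 0.00765), NFKBIA (-0.58, 0.0190) and NFKB1 (-0.38, 0.0217).

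Set in order over the 4 groups, TNFAIP3 ran from DLD1 lactate (55.3 ± 3.81 CPM) through DLD1 control (61.4 ± 2.28) and SW480 control (636 ± 67.8) to SW480 lactate (1002 ± 42.6), with no overlap between neighbours. BIRC3 had the same order, at 64.8 ± 3.40, 84.9 ± 26.7, 288 ± 31.8 and 434 ± 63.7 CPM, and only the 2 DLD1 groups overlapped. NFKBIA followed it as well, at 216 ± 3.92, 217 ± 28.8, 254 ± 30.1 and 357 ± 28.8 CPM, with only SW480 lactate apart from its neighbour. NFKBIZ was arranged differently. It was lowest in SW480 controls (58.5 ± 7.30 CPM), and its SW480 lactate libraries (92.9 ± 8.64) overlapped both DLD1 lactate (86.0 ± 1.37) and DLD1 control (104 ± 16.6). NFKB1 was also lowest in SW480 controls (70.9 ± 2.31 CPM), and its other 3 groups (81.9 to 86.5) overlapped their neighbours. For REL all neighbouring groups overlapped.

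Of the subunit transcripts counted per kilobase, NFKB2 made up the largest share in every group. In SW480 its share was 45.2% ± 1.52 (SD, n = 3) in controls and 44.0% ± 0.688 with lactate, and in DLD1 29.9% ± 2.72 and 32.2% ± 0.948. RELA took 22.9% ± 0.822 in SW480 controls and 27.2% ± 2.11 with lactate, with no overlap between the groups. RELB took 8.94% ± 0.139 of the subunit transcripts in SW480 controls and 7.32% ± 0.105 with lactate, without overlap, although its own level was not called, and 16.1% ± 2.07 and 16.2% ± 0.576 in DLD1. The summed level of the 5 subunits was 87.5 to 95.5 CPM per kb in SW480 controls and 113 to 119 with lactate, and 74.7 to 97.9 and 87.5 to 97.4 in DLD1. The sums did not overlap in SW480 and did in DLD1. No test was made of shares or sums.

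Of the other genes of the pathway, those that stand between the receptors and IKK or belong to IKK showed no common direction in SW480. Among 27 activating kinases and adaptors, 2 rose and 4 fell, with a median log2 fold change of 0.00, where 6.83% of all genes were called up and 5.59% down. BCL10, the adaptor of the CARD and MALT1 complex, rose by 0.79 ± 0.10 (edgeR adjusted p 3.21e-04), from 34.4 ± 1.89 to 58.7 ± 4.52 CPM (SD, n = 3). TAB2, which links ubiquitin chains to the kinase TAK1, was higher by 0.34. RIPK1, the kinase at the tumour necrosis factor receptor, was called lower (-0.47), as were TIRAP (-0.49), an adaptor of Toll-like receptors, and IKBKE (-0.44), an IKK-related kinase. The other gene called lower was IKBKB (-0.40, edgeR adjusted p 0.0381), which encodes a kinase of IKK itself. Fits with a library left out are not given for IKBKB. BCL10 was called in all 12 fits with a library left out. RIPK1 kept its call in 8 of them, TIRAP in 7, IKBKE in 4 and TAB2 in 3, with the highest adjusted p at 0.107, 0.183, 0.159 and 0.174.

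Among 15 other negative regulators of the pathway, 2 rose in SW480 and 0 fell, with a median of 0.21, and that number called is near the 12.4% of all genes. TNIP2, a partner of A20, went from 72.2 ± 4.002 to 124 ± 12.3 CPM (0.80, adjusted p 0.00901), and OTUD7B, a deubiquitinase, from 73.4 ± 3.67 to 94.3 ± 5.60 (0.38, adjusted p 0.0232). The TNIP2 call was lost without SW480 control 1 (0.0594) or lactate 2 (0.0502), and OTUD7B kept its call in 8 of 12 such fits. Of the other IkB family members, NFKBID and BCL3 passed the filter and neither was called, and NFKBIB had at most 11 counts in a library. Of 16 receptor genes, 4 rose and 0 fell, against 6.83% of all genes up and 5.59% down. TNFRSF11A (0.89), the receptor RANK, was called in all 12 fits with a library left out. TNFRSF1B, the second receptor of tumour necrosis factor, rose by 1.11 from a level of only 1.30 ± 0.289 CPM, and IL1RAP, a chain of the interleukin-1 receptor, by 0.44. They kept their calls in 9 and 8 of the 12 fits.

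The ligands measured were few. Of 14 ligand genes 9 passed the filter and 2 of these were called, both up (6.83% of all genes were), and TNF, LTB and CD40LG had 0 counts in every library. IER3, one of the targets listed below, also had 0 counts in every library. Whether 0 counts mean that a gene was silent was not tested. IL1B rose in SW480 by 2.21 ± 0.23, from 20.4 ± 8.31 to 91.9 ± 16.1 CPM, and IL1A by 1.22 ± 0.16, from 80.04 ± 16.6 to 183 ± 18.7, and both were called in all 12 fits with a library left out. In DLD1 IL1B was at 0.265 ± 0.119 and 0.779 ± 0.177 CPM, and 0 of 9 ligands were called by edgeR. In DLD1 0 of the 27 kinases and adaptors, 15 negative regulators and 16 receptors were called either.

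Textbook targets of NF-kB outside the members were called in different directions in the 2 lines. Of 23 tested (30 listed), 11 rose and 1 fell in SW480, with a median of 0.22, against 6.83% of all genes up and 5.59% down. In DLD1 0 rose and 5 fell, with a median of -0.22, against 0.336% up and 0.0455% down. In SW480 PTGS2, which encodes cyclooxygenase-2, went from 540.4 ± 92.5 to 1256 ± 118 CPM (log2 1.24). TRAF1, an adaptor induced by the pathway, rose by 0.86. CXCL10, a chemokine that also depends on interferon signalling, fell by 1.07 on the log2 scale. Its level was low, at 4.14 ± 0.0951 CPM in SW480 controls and 1.92 ± 0.217 with lactate. CCL20, a chemokine that attracts lymphocytes and dendritic cells, went from 28.4 ± 7.74 to 78.6 ± 10.04 CPM in SW480 and from 79.2 ± 14.0 to 37.9 ± 3.77 in DLD1. The difference of its effects was -2.59 ± 0.26 (edgeR adjusted p 9.04e-04). CXCL1 (-0.89), CXCL2 (-0.75) and CXCL3 (-0.80), near-identical genes that can share reads, fell in DLD1. With CCL20 and CXCL8 they were the 5 targets called lower there. In SW480 CXCL3 was called higher (0.63, edgeR adjusted p 0.00208). CXCL1 was called in all 12 DLD1 fits with a library left out, CXCL3 in 11 (not without DLD1 control 1, adjusted p 0.0527) and CXCL2 in 9 (0.0527 without DLD1 control 1, up to 0.0602). With DLD1 fitted alone CXCL1, CXCL2 and CXCL3 each had an edgeR adjusted p of 0.181.

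For the difference of the effects, 5 of the 23 targets were called, all lower in DLD1, with CXCL3 at -1.44 ± 0.15 and CXCL1 at -1.02 ± 0.13. These 2 and CCL20 held in all 22 alternatives. BCL10 was the 1 gene of the other lists that was called (-0.72 ± 0.14, adjusted p 0.0371), and it kept that call in 4 of the 12 fits with a library left out. The numbers of all listed genes called moved with single libraries. In SW480 21 rose in all, and 8 without SW480 control 1. Among all genes 1201 (6.83%) rose in SW480, and 438 without SW480 control 1. In DLD1 0 listed genes rose and 5 fell, and without DLD1 control 3 it was 20 and 15. Among all genes 67 (0.381%) were called in DLD1, and 3838 (21.8%) without DLD1 control 3.

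The genes whose pattern over the 12 libraries was most like that of a feedback gene were found by the root mean square difference of centred log2 CPM among 11599 genes. WDFY2 (0.160), ELL2 (0.178) and RRAGD (0.183) were nearest to TNFAIP3. WDFY2 stood at 182 ± 18.7 and 255 ± 9.08 CPM in SW480 and at 14.9 ± 2.51 and 13.5 ± 1.03 in DLD1, and ELL2, an elongation factor of RNA polymerase II, at 407 ± 39.1, 598 ± 52.1, 42.5 ± 5.08 and 40.3 ± 3.55. For NFKBIZ the nearest were SGK494 (0.138), HMGA2 (0.152) and RNF168 (0.155). SGK494 had 8.86 ± 0.341 and 13.8 ± 0.276 CPM in SW480. For BIRC3 they were CCDC88A (0.126), QKI (0.160) and SESTD1 (0.171), and for NFKBIA DNAJC14 (0.102), UBAP1 (0.105) and GS1-124K5.11 (0.114). Among the members, NFKBIA lay nearest to NFKB2 (0.202) and RELA (0.206). These distances share library depth and the GC trend of single libraries, and they describe the 12 libraries only.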

How the data were processed

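RNA from 12 libraries was measured by sequencing. The authors deposited whole-number read counts per gene symbol, with 1 column per library and no normalization, per the file headers. The submitters' processing notes name HISAT2 and GRCh38. No source used here names the counting tool, its strand setting or the annotation. All columns matched a library by its title, and 0 were left unused.

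The test was edgeR 4.0.16 in R 4.3.3 (TMM scaling, filterByExpr by group, 1 robust quasi-likelihood model with 1 mean per group over all 12 libraries). Tests were two-sided, p-values were adjusted by Benjamini-Hochberg over 17572 genes, and a gene was called under 0.05. Each SE was derived from the log2 fold change and its F statistic (size over root F), and 95% intervals use the t quantile of the fit's degrees of freedom. The labels name biological replicates without saying how cultures were separated, so p-values measure the spread between these libraries. A chi-square check of counts found no pair of libraries alike within counting noise.

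The 10 genes, the pathway lists and the tests were chosen with earlier results of these data known. From each list were named, per line and direction, up to 3 called genes with the smallest adjusted p, up to 3 per list for the difference of the effects, and the 3 genes nearest in pattern to each of 4 feedback genes (mean of at least 5 CPM, prior count 2). IKBKB and CXCL8 were named in addition.

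Each result was recomputed with DESeq2 1.42.0, limma-voom (limma 3.58.1), upper quartile or median-of-ratios scaling, without the filter or with 1 of at least 1 CPM in 3 libraries, with replicate number as a block, with removal of the trend along GC content and length (natural splines with 5 degrees of freedom, as offsets, GC content known for 87.7% of tested genes), with both together, with each line alone and with each library left out. Leaving out both DLD1 control 2 and control 3 was added after the data had been seen. GC content and length are those of the longest coding transcript in GENCODE. Positions and promoters are RefSeq's (GRCh38.p14). The procedure was tested on simulated data.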

Additional observations from a re-analysis of the deposited data

Results flagged for a closer look

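The response to lactate differed between the lines in edgeR's interaction test for NFKBIZ, by -0.99 on the log2 scale (DLD1 minus SW480), and for TNFAIP3, by -0.86. NFKBIZ rose by 0.70 in SW480 and stood at -0.30 in DLD1, and TNFAIP3 rose by 0.68 and stood at -0.18. In both genes all 3 lactate libraries lay above the controls in SW480 and below them in DLD1. Of all genes 18.9% lay apart and higher with lactate in SW480, and 8.06% apart and lower in DLD1. Neither gene was called in DLD1 (edgeR adjusted p 0.253 for NFKBIZ and 0.359 for TNFAIP3). For TNFAIP3 in DLD1 the lowest control was at 59.9 CPM and the highest lactate library at 59.7.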

How the results depend on the processing

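The numbers of genes called moved more than the fold changes. In SW480 6 members were called up, and 2 to 8 with single libraries left out. Among all genes 2183 were called, 694 to 4345 with single libraries left out, 4345 without DLD1 control 2, 5034 after removal of the GC content and length trend, 4903 with the block as well, 4759 with SW480 fitted alone and 4741 without both DLD1 control 2 and control 3. With edgeR 0 members in DLD1 were called up and 0 down, against 1 down without the filter, and 0 to 3 up and 0 to 2 down with single libraries left out. Among all genes 67 were called in DLD1, 3 to 3838 with single libraries left out, 855 without the filter, 684 with DESeq2, 614 with the trend removed, 587 with the block as well, 2 with DLD1 alone and 613 without both controls. For the difference of the effects 2 members were called lower, 0 to 5 with single libraries left out, 5 with DESeq2, 8 with the trend removed, 8 with the block as well and 4 without both controls. Among all genes 128 were called for it, 8 to 1517 with single libraries left out, 837 without the filter, 719 with DESeq2, 1436 with the trend removed, 1336 with the block as well and 647 without both controls. The calls in DLD1 were 59 up and 8 down, against 339 and 345 with DESeq2, 556 and 299 without the filter and 329 and 285 with the trend removed. The cause of these moves was not tested. The counts in the pathway lists below are to be read beside these counts over all genes.

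In the pathway lists 21 genes rose in SW480 (8 to 28 with single libraries left out, 32 with the trend removed, 32 with SW480 alone, 33 without both controls) and 5 fell (1 to 9 with single libraries left out, 3 without the filter, 10 in each of the trend removal, the trend with the block, SW480 alone and both controls out). In DLD1 0 rose (0 to 20 with single libraries left out, 7 without the filter, 2 with DESeq2, 1 with the block, 2 with the trend removed, 3 with both, 3 without both controls) and 5 fell (1 to 15, 9 with the trend removed, 10 with the block as well, 0 with DLD1 alone). For the difference 0 were higher in DLD1 (0 to 2 with single libraries left out, 1 without the filter, 2 with DESeq2, 3 with the trend removed, 3 with the block as well, 1 without both controls) and 6 lower (3 to 15, 12 without the filter, 15 with DESeq2, 19 with the trend removed, 20 with the block as well, 10 without both controls).

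Signs turned only for genes that were not called in either fit. With the trend removed the effect in DLD1 was -0.064 for NFKB2, -0.17 for RELB and -0.25 for NFKBIE, and with the block as well -0.067, -0.17, -0.25 and, for REL, 0.0013. With single libraries left out the DLD1 effect ran from -0.58 (without control 3) to 0.28 (without control 2) for REL, from -0.12 (without control 2) to 0.14 for NFKBIE, which was at -0.04 without lactate 3, and from -0.11 (without control 2) to 0.066 (without control 3) for NFKBIA. Without both controls NFKB1 was at 0.010, REL at 0.077 and NFKBIE at -0.049. For the difference of the effects RELB was at -0.22 with the trend removed, -0.22 with the block as well, -0.079 without DLD1 control 2 and up to 0.29 without DLD1 control 3, and it was also below 0 without SW480 lactate 3, DLD1 control 1 or DLD1 lactate 3. REL ran there from -0.72 without DLD1 control 3 to 0.15 without DLD1 control 2, and NFKB2 from -0.22 to 0.090 without DLD1 control 3. Between untreated lines REL ran from -0.19 to 0.68 and RELA from 0.011 to -0.38 without DLD1 control 2 and control 3, respectively.

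Same-numbered libraries of a line had deviations that correlated at 0.07, 0.07 and 0.14 in SW480 and at -0.17, 0.19 and 0.27 in DLD1, and not every library correlated best with its own number, so the numbers were not taken as pairs. With replicate number as a block 184 genes were called in DLD1, 274 for the difference of the effects and 2345 in SW480. Under the block NFKB1 in SW480 had an adjusted p of 0.0581, NFKBIE 0.0259 and BIRC3, for the difference, 0.0230.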
